A study of Homo sapiens with 12 samples.

Results

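Transcripts of 10 protease inhibitor genes were followed in MOLM14 cells, a human acute myeloid leukemia line of monocytic character. The genes were SLPI and SERPINA1, which encode secreted inhibitors of serine proteases, SERPINB1, SERPINB2, SERPINB6, SERPINB8 and SERPINB9, which encode intracellular serpins of clade B, and CST3, CST7 and CSTB, which encode cystatins. They were chosen by their symbols, with their values in these libraries already known, and each symbol was found once among 61487 gene identifiers. Because the genes were selected on these data, every value below describes them, and the adjusted p-values, which come from a fit of all genes, are not independent support for a pattern in the family. Of the 10 genes, 7 had enough counts to be tested among 16104 genes. SERPINA1, SERPINB2 and SERPINB9 did not, and they are given as counts.

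The cells carried a short hairpin RNA against RIP140, the protein of the NRIP1 gene, and doxycycline (DOX) switched on the hairpin. RIP140 is a coregulator that binds nuclear receptors, including those for retinoic acid, and all-trans retinoic acid (ATRA) drives maturation of some leukemic myeloid cells. There were 4 groups of 3 libraries. The combined group received DOX at 50 ng/mL, renewed every other day, and ATRA at 1 µM for 48 h. The ATRA group received ATRA alone, the DOX group received DOX alone, and the untreated group received neither. All groups carried the hairpin construct and were grown in serum free of tetracycline. The groups hold no line with a control hairpin, so the effect of the hairpin and that of DOX itself cannot be told apart, and the labels do not say whether the line is 1 clone. In bulk RNA, a change in the share of cells that express a gene and a change in its RNA per cell cannot be told apart.

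Levels are in CPM, the count of a gene scaled to the size of its library. NRIP1 was measured at 15.9, 20.9 and 19.95 CPM in the combined libraries, at 38.5, 41.1 and 51.9 CPM in the ATRA libraries, at 19.2, 14.99 and 15.7 CPM in the DOX libraries and at 59.7, 58.9 and 53.3 CPM in the untreated libraries. Every library with DOX was below every library without it, and the fitted level was 43.0% in combined relative to ATRA cells and 29.3% in DOX relative to untreated cells. Library totals ran from 2685984 to 19358619 counts, and the smallest was DOX replicate 3. Of 12 myeloid marker genes, 10 were tested, and the summed level of all 12 was 1240 to 1460 CPM in combined, 1300 to 1390 CPM in ATRA, 1350 to 1430 CPM in DOX and 1220 to 1300 CPM in untreated libraries. ANPEP and CD14 were too low to be tested. Over the combined, ATRA, DOX and untreated libraries ANPEP had 26, 20, 12 and 0 counts, and CD14 had 8, 3, 4 and 8. Single markers moved in both directions: with ATRA, 4 were called higher (CD33, CD4, SPI1 and ITGAM) and 4 lower (MPO, LYZ, KMT2A and HOXA9), and with DOX 2 were called higher (SPI1 and MPO) and 2 lower (ITGAM and KMT2A). Between combined and ATRA libraries MPO was called higher and ITGAM lower. Their part in the results was not tested. The summed level of 21 markers of lymphoid, erythroid, megakaryocytic, epithelial, fibroblast and liver cells was 30 to 44.3 CPM in combined, 32.2 to 37.8 CPM in ATRA, 46.5 to 51.1 CPM in DOX and 41.2 to 42 CPM in untreated libraries. Of those 21, 9 were at 0 in the combined, 10 in the ATRA, 10 in the DOX and 8 in the untreated libraries, and their part in the results was not tested. Combined replicate 1 stood apart from the other combined libraries for SLPI and CST7, and also for the granule genes MPO (259.9 CPM, against 158 and 171 CPM in the other combined libraries) and CTSG (969.7 CPM, against 497 and 565 CPM), so results on SLPI and CST7 are given with and without it.

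Serpins trap serine proteases by offering a reactive loop that the protease cuts, after which both proteins are locked in a covalent complex. Cystatins and SLPI instead block the active site reversibly, cystatins acting on papain-like cysteine cathepsins and SLPI on neutrophil elastase and cathepsin G. Myeloid precursors make large amounts of these proteases for their granules and lysosomes, and the inhibitors are known for protecting the cells and the surrounding tissue from proteases that escape. In neutrophils, SERPINB1 blocks elastase, proteinase 3 and cathepsin G inside the cell.

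The levels of the inhibitors spanned a wide range in these cells. Genes are set side by side per kilobase of merged exons, which take in every annotated transcript. The merged length was 3094 bases for SERPINB1, 930 for CST7, 3695 for CST3 and 3935 for CSTB, and the order of genes can depend on it. Without division by length, untreated libraries averaged 96.5 CPM for CST3, 60.5 for SERPINB1 and 27.2 for CST7. Per kilobase, SERPINB1 was highest in the combined and ATRA groups. Its level was 66.9 CPM per kb in the combined group, 56.6 in the ATRA group, 29.1 in the DOX group and 19.6 in the untreated group. CST7 stood at 12.2, 9.74, 41.4 and 29.3 CPM per kb in the combined, ATRA, DOX and untreated groups. On this scale it had the highest level of the 10 genes in both groups without ATRA. CST3 stood at 35.3, 45.4, 34.3 and 26.1 CPM per kb in the same order of groups. CSTB stayed between 14.2 and 18.7 CPM per kb, SLPI between 3.51 and 21.1, and SERPINB8 between 3.37 and 5.75. SERPINB6 was lower, at 0.555, 1.15, 0.0982 and 0.0735 CPM per kb in the combined, ATRA, DOX and untreated groups, on an exon union of 13201 bases that takes in every annotated transcript. SERPINA1, SERPINB2 and SERPINB9 were below 0.1 CPM per kb in all 4 groups.

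**Figure D1:**
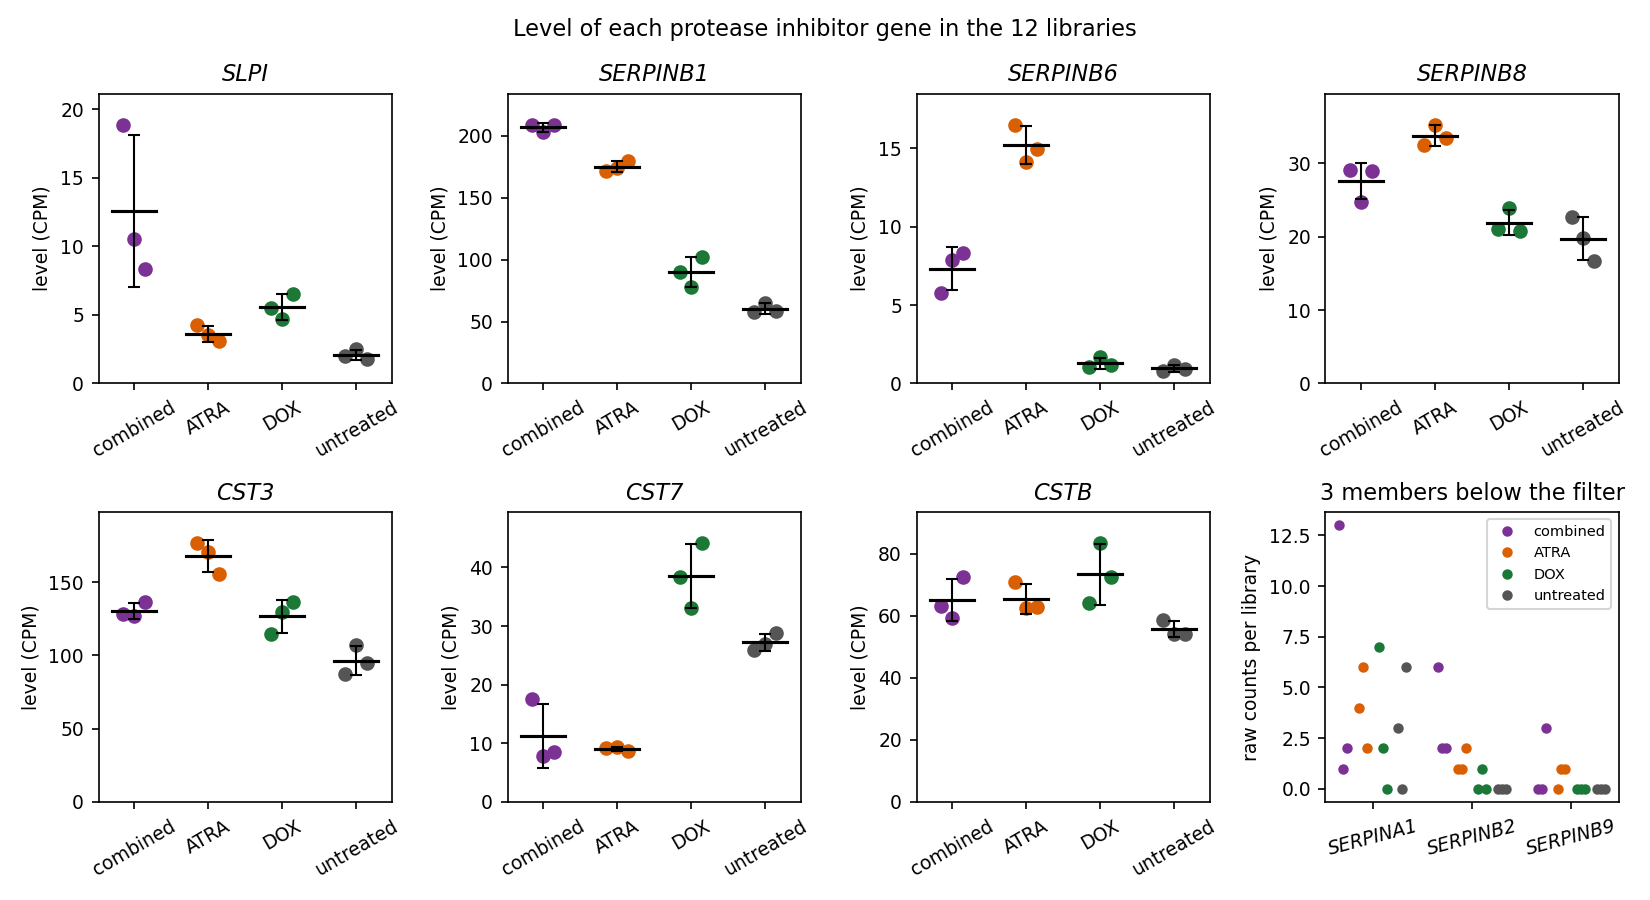
Level (CPM, linear axis from 0) of each of the 7 tested inhibitor genes in the combined, ATRA, DOX and untreated libraries, where points are libraries, horizontal lines are group means and error bars are 1 SD (n = 3), with a last panel of raw counts per library for SERPINA1, SERPINB2 and SERPINB9. SERPINB6 has the largest ratio between its highest and lowest group means, at 7.33 CPM in combined, 15.2 in ATRA, 1.30 in DOX and 0.971 in untreated libraries, and combined replicate 1 is the highest combined point for SLPI and CST7.

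Of the 7 tested genes, ATRA against untreated cells gave 5 higher (SERPINB1, SERPINB6, SERPINB8, SLPI and CST3), 1 lower (CST7) and 1 uncalled (CSTB), at an adjusted p under 0.05 in the edgeR fit of all genes, with a median log2 fold change of 0.80. Over all genes tested the same comparison called 15.7% higher and 13.2% lower, with a median of -0.01. DOX against untreated cells gave 4 higher, SLPI, SERPINB1, CST3 and CSTB, and 3 uncalled, with a median of 0.46, where 8.08% of all genes were called higher and 7.1% lower. The share of counts on mitochondrial ribosomal RNA was 1.02 to 2.18% in DOX and 2.54 to 4.60% in untreated libraries. These ranges did not overlap, so a term for that share and the effect of DOX cannot be fully told apart. With that share as a term in the model, all 4 DOX calls were lost, and 28 of all genes were called (edgeR). The log2 fold changes with that term were 1.48 for SLPI (adjusted p = 0.269), 0.56 for SERPINB1 (adjusted p = 0.0946), 0.27 for CST3 (adjusted p = 0.568) and 0.15 for CSTB (adjusted p = 0.83), against 1.35, 0.55, 0.38 and 0.40 without it. Combined against ATRA gave 1 higher, SLPI, and 2 lower, SERPINB6 and CST3, where 1.89% of all genes were called higher and 2.54% lower; without combined replicate 1 the calls were 1 higher and 1 lower. The mitochondrial ribosomal RNA share was 1.24 to 2.02% in combined and 2.09 to 2.75% in ATRA libraries, and with it as a term the log2 fold changes were 1.85 for SLPI (adjusted p = 0.000173), -1.25 for SERPINB6 (adjusted p = 0.000489) and -0.41 for CST3 (adjusted p = 0.0133) in the edgeR fit. Combined against DOX gave 3 higher, SERPINB1, SERPINB6 and SLPI, and 1 lower, CST7, where 10.7% of all genes were called higher and 8.24% lower, with the same counts without combined replicate 1. The interaction, the effect of ATRA with DOX less its effect without DOX, gave 1 lower, CST3, and 6 uncalled, where 0.0435% of all genes were called higher and 0.224% lower. Because the genes were selected with these comparisons in view, nothing is read from their counts against those shares. The ATRA and DOX comparisons share the untreated libraries, both combined comparisons share the combined libraries, and each combined comparison shares its other group with one of the first pair.

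**Figure D2:**
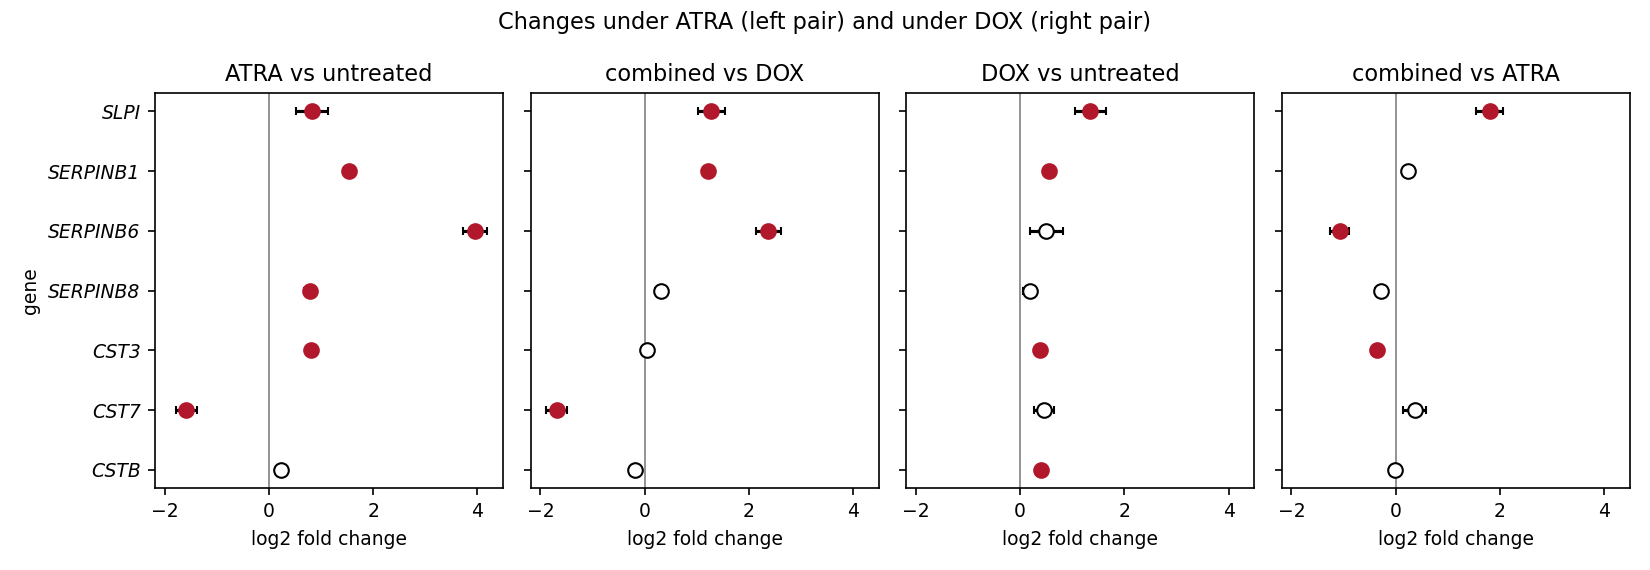
Log2 fold changes of the 7 tested inhibitor genes in the 4 comparisons of 2 groups, with bars of 1 SE and filled points for an adjusted p under 0.05. SLPI lies above 0 in all 4, while CST7 lies at -1.59 and -1.68 in the comparisons with ATRA on top and at 0.46 and 0.37 in those with DOX on top.

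Among the intracellular serpins, SERPINB1 was the most abundant and rose with ATRA whether or not DOX was present. It lies on chromosome 6, at chr6:2832332-2842006 on the minus strand (GRCh38). Its level was 209, 203 and 209 CPM in the combined libraries, 172, 174 and 180 CPM in the ATRA libraries, 90.0, 78.1 and 102 CPM in the DOX libraries and 57.5, 65.2 and 58.8 CPM in the untreated libraries. All 4 groups were separated without overlap, in the order combined, ATRA, DOX, untreated. Against untreated cells the log2 fold change was 1.53 ± 0.09 with ATRA (SE, adjusted p = 1.99e-11, edgeR quasi-likelihood test with Benjamini-Hochberg adjustment, n = 3 each) and 0.55 ± 0.09 with DOX (adjusted p = 0.00115, same edgeR test). The combined libraries exceeded the DOX libraries by 1.23 ± 0.09 on the log2 scale (adjusted p = 1.72e-09, edgeR). The difference of 0.24 ± 0.09 between combined and ATRA libraries did not pass the test (adjusted p = 0.122, edgeR), although their ranges did not overlap.

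SERPINB6, an intracellular serpin that inhibits cathepsin G and trypsin, had the largest change of the 7 tested genes. It was measured at 5.77, 7.87 and 8.35 CPM in the combined libraries, 16.5, 14.1 and 14.9 CPM in the ATRA libraries, 1.035, 1.70 and 1.15 CPM in the DOX libraries and 0.773, 1.20 and 0.939 CPM in the untreated libraries. The ATRA libraries were the highest, the combined libraries stood between them and the groups without ATRA, and the DOX and untreated ranges overlapped. ATRA gave a 15.5-fold higher level than in untreated cells (log2 fold change 3.96 ± 0.23, adjusted p = 2.4e-11, edgeR). In the presence of DOX the same treatment gave a 5.2-fold higher level (2.38 ± 0.25, adjusted p = 3.06e-07, edgeR). The combined libraries held 47.5% of the ATRA level (-1.07 ± 0.18, adjusted p = 0.00087, edgeR), and the DOX difference without ATRA, 0.51 ± 0.32, did not pass the test (adjusted p = 0.288, edgeR) and was 0.12 without DOX replicate 2. The groups without ATRA rest on few reads, 47 counts over the 3 DOX libraries and 39 over the 3 untreated libraries. The difference between the ATRA effects with and without DOX was -1.58 ± 0.37 and did not pass the threshold (adjusted p = 0.0748, edgeR), but it did with DESeq2 (adjusted p = 0.0389).

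SERPINB6 and SERPINB1 lie in one cluster on chromosome 6 with SERPINB9, the inhibitor of granzyme B. SERPINB9 spans chr6:2887266-2903280 and SERPINB6 spans chr6:2948159-2972165, both on the minus strand. SERPINB9 is 45.3 kb from SERPINB1 and 44.9 kb from SERPINB6, which are 106.2 kb apart. SERPINB9 was nearly silent between these neighbours, with 0, 0 and 3 counts in the combined libraries, 0, 1 and 1 in the ATRA libraries and 0 in every DOX and every untreated library. A count of 0 over a group allows up to 0.0899 CPM in DOX and 0.0748 CPM in untreated cells. The other genes of the neighbourhood with calls after ATRA were NQO2, 15.8 kb from the nearest of the 3 serpins, with a log2 fold change of 0.48 (adjusted p = 0.022, edgeR), and RIPK1, 91.8 kb away, with 0.44 (adjusted p = 0.0013, edgeR).

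The promoters of the 3 chromosome 6 serpins are shown because the genes are neighbours with unlike levels and ATRA acts through nuclear receptors that bind half-sites of the form AGGTCA or AGTTCA. Each is RefSeq sequence of GRCh38.p14 on the minus strand, written 5′ to 3′ from 250 bases before to 50 after the annotated start, and capitals mark a half-site read on either strand. They span chr6:2841814-2842113 for SERPINB1, chr6:2903260-2903559 for SERPINB9 and chr6:2971518-2971817 for SERPINB6.
SERPINB1: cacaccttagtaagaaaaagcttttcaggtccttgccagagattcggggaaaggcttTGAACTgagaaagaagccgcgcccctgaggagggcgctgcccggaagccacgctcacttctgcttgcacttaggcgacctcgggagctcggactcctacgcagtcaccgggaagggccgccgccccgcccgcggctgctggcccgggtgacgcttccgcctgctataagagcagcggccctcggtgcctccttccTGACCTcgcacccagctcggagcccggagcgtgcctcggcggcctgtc
SERPINB9: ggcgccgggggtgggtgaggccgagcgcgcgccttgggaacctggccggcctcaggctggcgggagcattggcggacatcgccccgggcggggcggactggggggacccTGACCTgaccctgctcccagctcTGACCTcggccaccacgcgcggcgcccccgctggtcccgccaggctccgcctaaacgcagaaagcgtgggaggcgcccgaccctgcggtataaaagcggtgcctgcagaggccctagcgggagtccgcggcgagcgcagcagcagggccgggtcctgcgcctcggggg
SERPINB6: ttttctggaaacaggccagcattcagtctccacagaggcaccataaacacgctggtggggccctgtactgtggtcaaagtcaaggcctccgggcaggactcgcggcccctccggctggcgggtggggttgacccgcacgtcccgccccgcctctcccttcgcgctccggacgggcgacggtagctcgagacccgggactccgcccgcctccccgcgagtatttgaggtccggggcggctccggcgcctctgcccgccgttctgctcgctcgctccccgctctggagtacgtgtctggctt
The SERPINB1 window held AGTTCA at base -193 and AGGTCA at base 3, both on the opposite strand, while the SERPINB9 window held AGGTCA at bases -141 and -118 and the SERPINB6 window held neither. Only these 2 half-sites and repeats of them were searched, so other variants of the site were not counted. Whether a match goes with a response to ATRA was not tested. Of the 7 inhibitor genes with a promoter in the RefSeq table, 3 held AGGTCA (SERPINB1, SERPINB2 and SERPINB9), against 13.9% of 27305 promoters of this length. AGTTCA was found in 2 of the 7 (SERPINB1 and SERPINB2), against 10.5% of all promoters. A direct repeat of either half-site spaced by 5 bases was found in 0 of the 7, against 0.00366% of promoters for the repeat of AGGTCA and 0.011% for that of AGTTCA, both strands searched. GC content was 65.7% in the SERPINB1, 75.7% in the SERPINB9 and 68.7% in the SERPINB6 window, against a median of 58.3% over all promoters. A match is a description of letters, and no binding was measured.

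The remaining clade B serpins lie on chromosome 18. SERPINB8, an intracellular inhibitor of furin, spans chr18:63969925-64019779 on the plus strand. It had 29.1, 24.7 and 28.9 CPM in the combined libraries, 32.5, 35.3 and 33.5 CPM in the ATRA libraries, 21.1, 23.9 and 20.7 CPM in the DOX libraries and 22.6, 19.9 and 16.7 CPM in the untreated libraries. The libraries with ATRA lay above those without it, and DOX and untreated ranges overlapped. It rose with ATRA by 0.78 ± 0.11 on the log2 scale (adjusted p = 1.88e-05, edgeR), while the difference between combined and DOX libraries was 0.31 ± 0.12 (adjusted p = 0.0715, edgeR). The difference was -0.29 ± 0.11 between combined and ATRA libraries (adjusted p = 0.159, edgeR) and 0.18 ± 0.12 between DOX and untreated libraries (adjusted p = 0.307, edgeR). The last was 0.30 without untreated replicate 1, 0.076 without untreated replicate 3 and 0.11 without DOX replicate 2. Its values may include reads of an overlapping antisense gene, AC009802.1, listed at 3.66, 4.23, 1.74 and 2.54 CPM in the combined, ATRA, DOX and untreated groups, since the strand setting of the counting is not given in the sources used here. SERPINB2, also called plasminogen activator inhibitor 2, lies nearby at chr18:63871692-63903890, where its annotation overlaps SERPINB10. It had 6, 2 and 2 counts in the combined libraries, 1, 1 and 2 in the ATRA libraries, 0, 1 and 0 in the DOX libraries and 0 in each untreated library. Its counts were detected in every library with ATRA, and at this depth they are too few for a fold change.

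SLPI, the secretory leukocyte protease inhibitor, rose with either agent and was highest with both. It spans chr20:45252239-45254564 on the minus strand. Its level was 18.9, 10.5 and 8.35 CPM in the combined libraries, 4.26, 3.51 and 3.08 CPM in the ATRA libraries, 5.49, 4.67 and 6.53 CPM in the DOX libraries and 2.03, 2.49 and 1.77 CPM in the untreated libraries. No neighbouring groups overlapped in the order combined, DOX, ATRA, untreated, and combined replicate 1 was far above the other combined libraries. SLPI was the one tested inhibitor that passed the test in all 4 comparisons of 2 groups. The combined libraries exceeded the ATRA libraries 3.49-fold (log2 fold change 1.80 ± 0.25, adjusted p = 0.000161, edgeR) and the DOX libraries by 1.28 ± 0.25 on the log2 scale (adjusted p = 0.000978, edgeR). Without combined replicate 1 these log2 fold changes were 1.37 (adjusted p = 0.000536, edgeR) and 0.86 (adjusted p = 0.00895, edgeR). Against untreated cells SLPI rose by 1.35 ± 0.30 with DOX (adjusted p = 0.00738, edgeR), a call lost without untreated replicate 3 (adjusted p = 0.0517, edgeR). The log2 fold change with ATRA alone was 0.83 ± 0.31 (adjusted p = 0.0482, edgeR), and this call was lost under 11 of 21 alternative settings, among them DESeq2 (adjusted p = 0.0531). The ATRA effects with and without DOX differed by 0.46 ± 0.40, which did not pass the test (adjusted p = 0.725, edgeR), and by 0.023 without combined replicate 1 (adjusted p = 0.993, edgeR).

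SERPINA1, the gene of alpha-1 antitrypsin, the main plasma inhibitor of neutrophil elastase, was barely detected. It spans chr14:94376747-94390693 and had 13, 1 and 2 counts in the combined libraries, 4, 6 and 2 in the ATRA libraries, 7, 2 and 0 in the DOX libraries and 3, 0 and 6 in the untreated libraries. The groups overlapped, and most of the combined counts came from replicate 1. With no filter on low counts, 0 of the 15 edgeR tests on SERPINA1, SERPINB2 and SERPINB9 passed the adjusted threshold, and 2 had an unadjusted p under 0.05. Both were on SERPINB2, with an adjusted p of 0.191 for ATRA against untreated and 0.3 for combined against DOX in that edgeR fit.

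The 3 cystatins followed 3 different orders. CST3, the gene of cystatin C, a secreted inhibitor of cathepsins B, L and S, spans chr20:23626706-23638473 on the minus strand. It was measured at 128, 127 and 136 CPM in the combined libraries, 177, 171 and 156 CPM in the ATRA libraries, 114, 130 and 136 CPM in the DOX libraries and 87.4, 107 and 95.02 CPM in the untreated libraries. The ATRA libraries were all above the others, the untreated libraries were all below them, and the combined and DOX ranges overlapped. CST3 rose by 0.80 ± 0.09 with ATRA (adjusted p = 5.57e-07, edgeR) and by 0.38 ± 0.09 with DOX (adjusted p = 0.00969, edgeR). In cells already on DOX, adding ATRA gave a difference of 0.05 ± 0.09 (adjusted p = 0.768, edgeR). The test of the difference between these ATRA effects gave -0.75 ± 0.13 (adjusted p = 0.0135, edgeR, 95% interval -1.01 to -0.48), and CST3 was the one inhibitor gene to pass it. The combined libraries were lower than the ATRA libraries by a log2 fold change of -0.37 ± 0.09 (adjusted p = 0.0202, edgeR). That last call was lost when some single libraries were left out. The adjusted p was 0.114 without ATRA replicate 1 and 0.0884 without ATRA replicate 2 (edgeR). It was 0.0504 without combined replicate 1 and 0.121 without combined replicate 2 (edgeR). With each library left out in turn, this log2 fold change stayed between -0.416 and -0.319. The DOX call was lost without DOX replicate 2 (adjusted p = 0.0519, edgeR), and the difference between the ATRA effects did not pass without untreated replicate 1 (-0.70, adjusted p = 0.0518, edgeR).

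**Figure D3:**
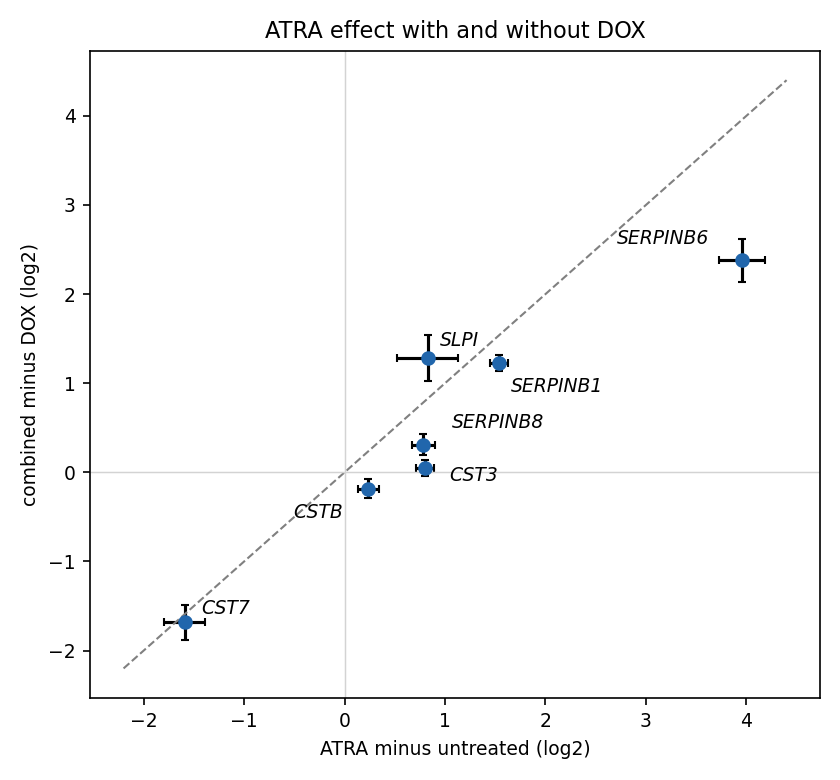
Log2 fold change with ATRA in the presence of DOX (combined against DOX) plotted against that without DOX (ATRA against untreated) for the 7 tested inhibitor genes, with bars of 1 SE and a line of equal effects. CST3 lies below the line at 0.05 with DOX and 0.80 without it, and SERPINB6 at 2.38 with DOX and 3.96 without it.

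CST7 is the gene of cystatin F, which is targeted to lysosomes of immune cells and restrains the cathepsin C that activates granule proteases. Of the 7 tested genes among the 10 followed here, it was the only one called lower with ATRA. It spans chr20:24949230-24959928 on the plus strand. It had 17.6, 7.79 and 8.57 CPM in the combined libraries, 9.15, 9.35 and 8.68 CPM in the ATRA libraries, 38.3, 33.2 and 44.1 CPM in the DOX libraries and 26.0, 26.9 and 28.8 CPM in the untreated libraries. All libraries with ATRA were below all libraries without it, the combined and ATRA ranges overlapped, and the DOX libraries were above the untreated ones. ATRA lowered it by a log2 fold change of -1.59 ± 0.20 against untreated cells (adjusted p = 3.41e-06, edgeR) and by -1.68 ± 0.20 in the presence of DOX (adjusted p = 1.81e-06, edgeR). The DOX difference without ATRA, 0.46 ± 0.18, did not pass the test (adjusted p = 0.0935, edgeR). It passed without combined replicate 1 (adjusted p = 0.00835, edgeR). It also passed without combined replicate 2, with no filter on low counts and with only the compared groups in the fit. Without combined replicate 1 the combined against ATRA difference was -0.15 (adjusted p = 0.605, edgeR), against 0.37 ± 0.22 with it (adjusted p = 0.38, edgeR), and the combined against DOX difference was -2.18 (adjusted p = 8.7e-11, edgeR). The ATRA effects with and without DOX differed by -0.09 ± 0.29 (adjusted p = 0.941, edgeR), and by -0.61 without that library (adjusted p = 0.171, edgeR).

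CSTB, the gene of stefin B, an inhibitor of cathepsins in the cytosol and nucleus, varied least. It spans chr21:43772511-43776445 on the minus strand. It had 63.3, 59.4 and 72.6 CPM in the combined libraries, 70.9, 62.6 and 62.9 CPM in the ATRA libraries, 64.1, 83.5 and 72.6 CPM in the DOX libraries and 58.6, 54.3 and 54.1 CPM in the untreated libraries. The 3 treated groups overlapped one another and lay above the untreated libraries. Its log2 fold change was 0.40 ± 0.10 with DOX (adjusted p = 0.0137, edgeR) and 0.24 ± 0.10 with ATRA (adjusted p = 0.0848, edgeR). Between combined and DOX libraries it was -0.18 ± 0.10 (adjusted p = 0.244, edgeR), with -0.29 and a call without DOX replicate 1 (adjusted p = 0.0468, edgeR) and -0.046 without DOX replicate 2. Between combined and ATRA libraries it was -0.01 ± 0.10 (adjusted p = 0.963, edgeR). The DOX call was lost without DOX replicate 2 (adjusted p = 0.147, edgeR) and without untreated replicate 3 (adjusted p = 0.0655, edgeR).

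Genes of the granule serine protease family, some of whose products these inhibitors act on, changed in both directions. Of 10 granule serine protease genes, 5 were tested. With ATRA, 3 of them rose, PRTN3 (proteinase 3) by 0.99 ± 0.13 on the log2 scale (adjusted p = 3.69e-06, edgeR), ELANE (neutrophil elastase) by 0.64 ± 0.12 (adjusted p = 0.000304, edgeR) and AZU1 (azurocidin) by 0.34 (adjusted p = 0.033, edgeR). The other 2 fell, CTSG (cathepsin G) by 1.18 (adjusted p = 1.78e-05, edgeR) and PRSS57 by 0.49 (adjusted p = 0.00354, edgeR). CTSG, a target of SLPI and SERPINB6, ranged from 497 to 970 CPM in combined, 521 to 628 CPM in ATRA, 1926 to 2452 CPM in DOX and 1239 to 1392 CPM in untreated libraries. DOX raised 4 of the 5, among them CTSG by 0.73 (adjusted p = 0.0086, edgeR) and PRTN3 by 0.70 (adjusted p = 0.00221, edgeR). PRSS57 was also called (adjusted p = 0.032, edgeR), with overlapping DOX and untreated ranges. The DOX calls in this and the other lists were not checked with the mitochondrial ribosomal RNA term, under which all DOX calls on the inhibitors were lost. That term cannot be fully told apart from DOX. Combined against ATRA called 0 of the 5 with edgeR and 0 with DESeq2, with 1 at an unadjusted p under 0.05. Combined against DOX called 1 higher, PRTN3, and 2 lower, CTSG and PRSS57; without combined replicate 1 PRTN3 was not called (adjusted p = 0.0752, edgeR).

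Of 12 cysteine cathepsin genes, the targets of cystatins, 8 were tested. ATRA raised 5, led by CTSL (cathepsin L) with a log2 fold change of 2.14 ± 0.16 (adjusted p = 1.14e-09, edgeR), followed by CTSO with 1.38, CTSZ with 0.89, CTSB (cathepsin B) with 0.83 and CTSS with 0.38, and lowered CTSH, with -1.01 (adjusted p = 0.00471, edgeR). DOX raised 4, CTSL, CTSC, CTSS and CTSZ, by 0.23 to 1.09 on the log2 scale. CTSL averaged 73.0 ± 22.0 CPM in combined, 46.9 ± 2.95 CPM in ATRA, 23.1 ± 1.67 CPM in DOX and 10.7 ± 0.516 CPM in untreated libraries (SD, n = 3 each). It was one of 2 cathepsins called between combined and ATRA libraries, higher by 0.64 ± 0.14 (adjusted p = 0.00941, edgeR), and the other, CTSB, was lower with -0.30 ± 0.08 (adjusted p = 0.0423, edgeR). Without combined replicate 1 these values were 0.37 for CTSL (adjusted p = 0.0439, edgeR) and -0.32 for CTSB (adjusted p = 0.059, edgeR). Combined against DOX called 4 higher, CTSL, CTSO, CTSZ and CTSB.

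Of 8 genes of plasminogen activation, the system that SERPINB2 restrains, 6 were tested. PLAU, the urokinase gene, rose with ATRA by 1.15 ± 0.09 on the log2 scale (adjusted p = 1.11e-09, edgeR) and with DOX by 0.39 (adjusted p = 0.008, edgeR). Its receptor gene PLAUR was the one gene of the list called between combined and ATRA libraries, higher by 0.42 ± 0.09 (adjusted p = 0.00851, edgeR). S100A10, which helps plasminogen bind the cell surface, fell with ATRA by 1.00 (adjusted p = 3.6e-06, edgeR). ATRA called 3 higher and 1 lower in this list, DOX 2 higher, and combined against DOX 3 higher and 2 lower. Of 3 inflammatory caspase genes, whose products clade B serpins can restrain, 2 were tested. CASP1 rose by 0.33 with ATRA (adjusted p = 0.0222, edgeR) and by 0.34 with DOX (adjusted p = 0.0386, edgeR). The DOX and untreated ranges of CASP1 overlapped. CASP4 was lower in combined than in DOX libraries, with -0.32 (adjusted p = 0.0238, edgeR), a call lost without combined replicate 1 (-0.25, adjusted p = 0.147, edgeR).

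The remaining inhibitors were mostly unexpressed. Of 29 other serpin genes 6 were tested, of 15 other cystatin genes 1, and of 31 inhibitors of other families 11. Among the serpins, ATRA called 3 higher, including AGT (angiotensinogen, a serpin with no inhibitory activity) at 1.28 ± 0.11 (adjusted p = 5.79e-09, edgeR) and SERPINH1, a collagen chaperone, at 0.58 ± 0.13 (adjusted p = 0.00255, edgeR). DOX called 1 other serpin higher, SERPINH1, and combined against DOX called 2 higher, and 1 without combined replicate 1. Combined against ATRA called 0 other serpins with edgeR and 0 with DESeq2, with 3 higher at an unadjusted p under 0.05. The tested cystatin, CSTA (stefin A), rose with DOX by 0.61 ± 0.10 (adjusted p = 0.000794, edgeR). Of the inhibitors of other families, ATRA called 4 higher and 2 lower. The lower calls included SPOCK2, at -1.77 ± 0.28 (adjusted p = 5.35e-05, edgeR). SPINT2, a membrane inhibitor of trypsin-like proteases, rose with ATRA by 3.17 ± 0.41 (adjusted p = 4.35e-06, edgeR), and it was lower in combined than in ATRA libraries, by -1.86 ± 0.36 (adjusted p = 0.00346, edgeR). Its groups without ATRA rest on few reads, 8 counts over the DOX libraries and 12 over the untreated libraries. SPINT2 averaged 0.750 ± 0.233 CPM in combined, 2.76 ± 0.693 CPM in ATRA, 0.289 ± 0.112 CPM in DOX and 0.293 ± 0.0373 CPM in untreated libraries (SD, n = 3 each), the order seen for SERPINB6 with DOX and untreated libraries overlapping. RECK, a membrane inhibitor of metalloproteases, was likewise lower in combined than in ATRA libraries, by -0.88 ± 0.18 (adjusted p = 0.00715, edgeR). The interaction called 0 of the 39 tested genes of these 7 lists with edgeR and 3 lower with DESeq2. At an unadjusted p under 0.05, 13 were lower, and without combined replicate 1 edgeR called 5 lower. Nothing is read from these counts, since the share of all genes at that unadjusted p was not computed. As with the inhibitors, the lists were drawn up with results of these data known.

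**Figure D4:**
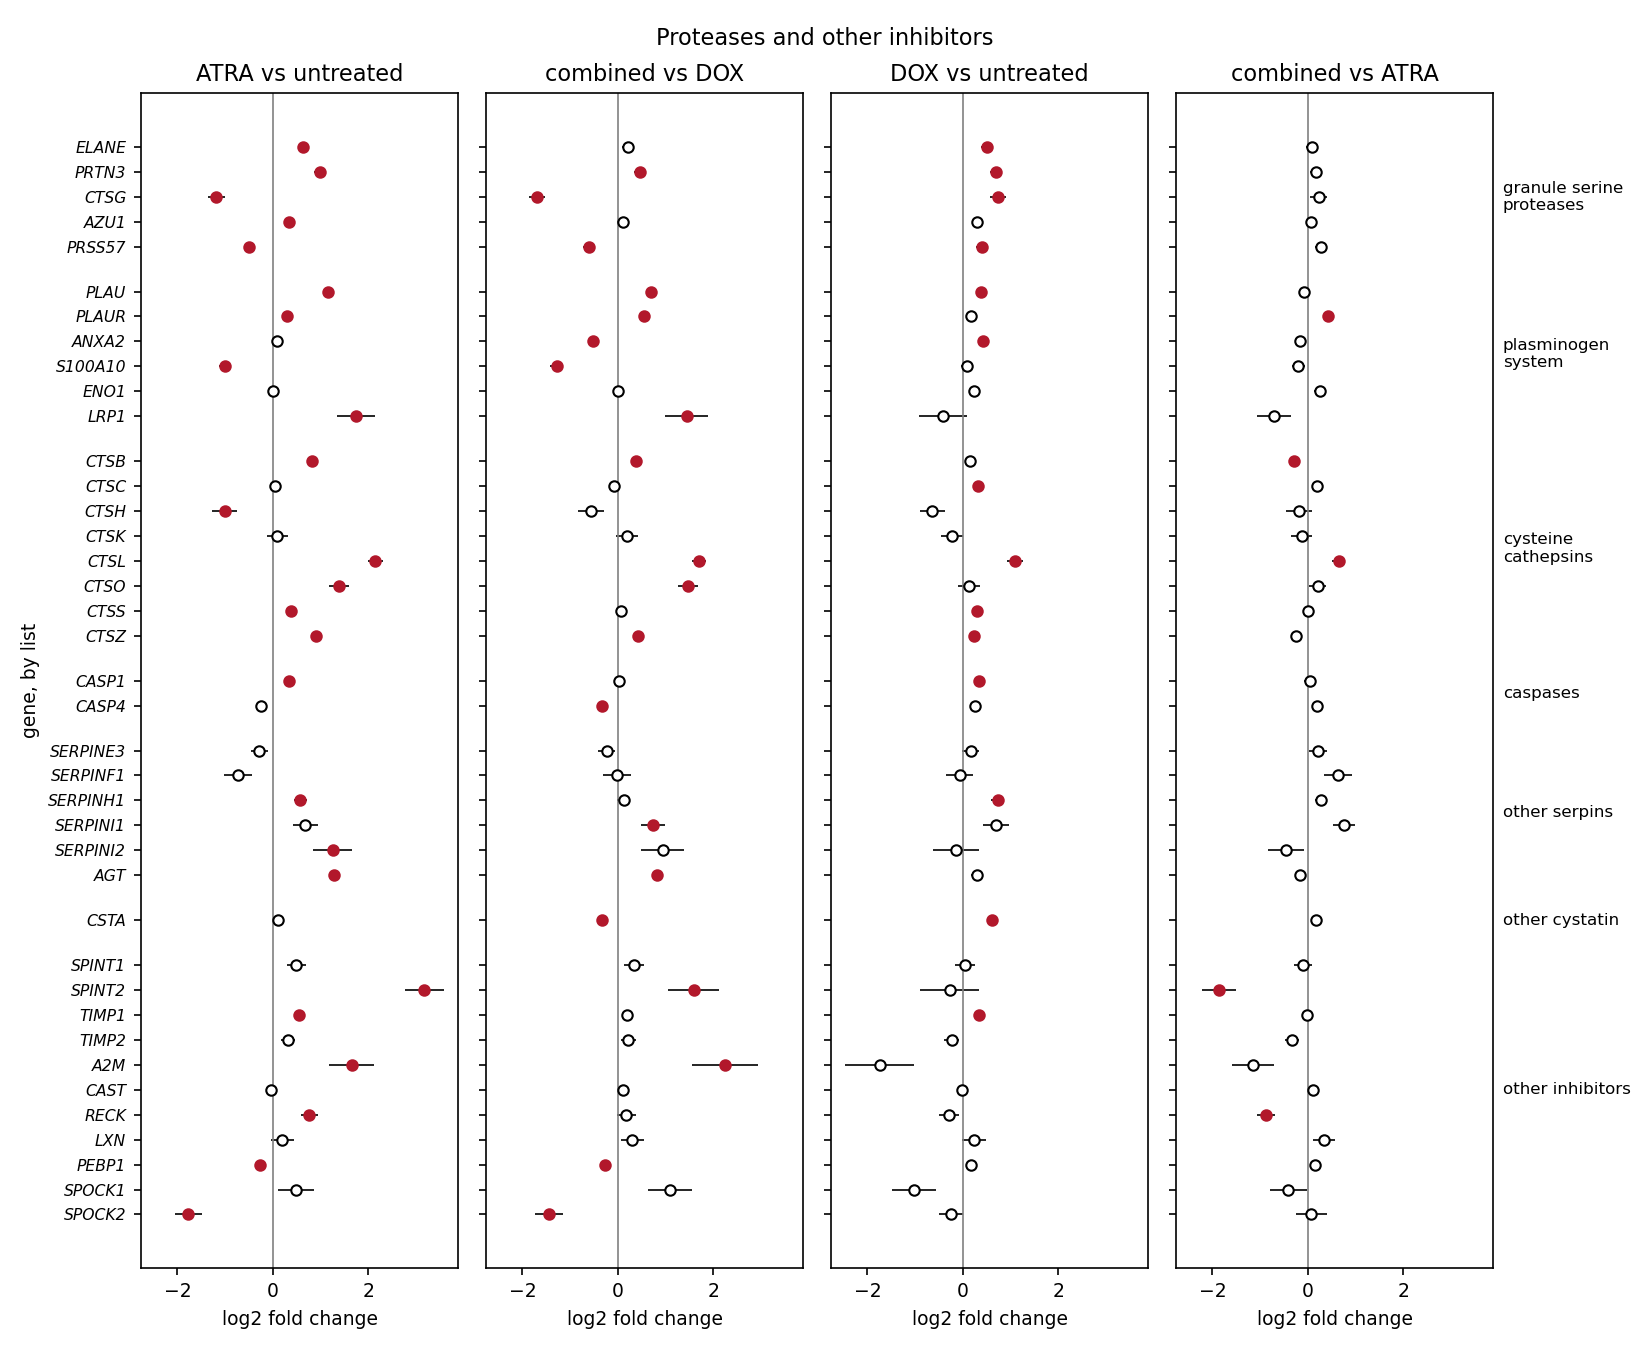
Log2 fold change of the 39 tested list genes (rows, grouped by list) in the 4 comparisons of 2 groups (panels), with bars of 1 SE and filled points for an adjusted p under 0.05. CTSL lies above 0 with a filled point in all 4 panels, at 2.14 with ATRA and 1.09 with DOX.

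The genes with the pattern most like each inhibitor were found by the root mean square difference of log2 CPM, each gene centred on its own mean, over the 12 libraries and 12037 genes with a mean of at least 2 CPM. For CST7 the nearest was CTSG, at a distance of 0.18, with means of 677 CPM in combined, 581 in ATRA, 2190 in DOX and 1320 in untreated libraries. Both genes were highest in combined replicate 1 within the combined group, a likeness that is already part of the distance. The next nearest to CST7 was MLC1, at 0.196. For SERPINB6 the nearest were CCR2, a chemokine receptor of monocytes, at 0.248, and SAMHD1, a nucleotide hydrolase, at 0.273. CCR2 had means of 53.5 CPM in combined, 108 in ATRA, 11.3 in DOX and 9.93 in untreated libraries. For SERPINB1 the nearest was TBC1D2, at 0.087, with 21.1, 17.3, 9.55 and 6.13 CPM in the combined, ATRA, DOX and untreated groups. For SLPI it was DHRS9, an oxidoreductase of retinoid and steroid metabolism, at the wider distance of 0.41, with 70.6, 41.4, 58.2 and 20.8 CPM in the same groups. OCEL1 was nearest to SERPINB8 at 0.104, RINL to CST3 at 0.104 and MIF4GD to CSTB at 0.057. A small distance for CSTB goes with its narrow span, an SD of 0.185 on the log2 scale over the 12 libraries, against 1.67 for SERPINB6.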

How the data were processed

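Total RNA of the 12 libraries was sequenced, and the deposited values are whole-number read counts per gene and library that the authors had not normalized. The tools named, per the submitters' processing notes, are FastQC for read quality, the aligner STAR and the counter HTSeq, and the build is GRCh38. Their versions, strand mode and gene annotation are not given in the sources used here, so overlapping and antisense genes cannot be told apart. Of 61487 identifiers, 61369 had a symbol in the table of gene names. Libraries were grouped from the labels, 3 to a group and described there as biological replicates. The inhibitor genes and the gene lists were chosen with earlier results of these data known, and 1 gene of the lists is not reported here.

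The test was edgeR's quasi-likelihood test (version 4.0.16, under R 4.3.3) with TMM factors, on the 16104 genes that passed filterByExpr. Contrasts came from 1 model of the 4 group means. P-values were adjusted by Benjamini-Hochberg across those genes, with calls at 0.05. The interaction is combined minus DOX, less ATRA minus untreated, on the log2 scale. CPM values use TMM-scaled library sizes. SEs were computed from the log2 fold change and its F statistic. The common biological coefficient of variation was 9.54%. Floors (3 counts over a group) cover counting error only. Genes were named by a rule, which takes the 10 inhibitors, NRIP1, from each list up to 4 called genes, lowest adjusted p first, in each comparison, and the 2 closest genes by pattern, of which some are printed. AZU1, CTSH, ANPEP, CD14, NKG7, KRT8, NQO2 and RIPK1 fall outside it and were named after their values were seen. Positions come from GENCODE on GRCh38, and lengths from its merged exons. Alternatives covered DESeq2 1.42.0, unscaled library sizes, no filter, thinning to the smallest library, fits of the compared groups alone, the mitochondrial ribosomal RNA share as a term, a replicate block and leaving out each library. The fit was tested on simulated data.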

Additional observations from a re-analysis of the deposited data

Results flagged for a closer look

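CST3 was marked because the effect of ATRA on it differed between cells with and without DOX. The difference of the log2 fold changes was -0.75 ± 0.13 (adjusted p = 0.0135, edgeR), from 0.05 ± 0.09 with DOX and 0.80 ± 0.09 without it. The library ranges of the combined and DOX groups overlapped, while those of the ATRA and untreated groups did not.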

How the results depend on the processing

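Of 18 called results on the 7 inhibitor genes, 11 kept their call and direction under all 21 alternatives, and 7 lost the call under at least 1. Among the 17 uncalled results 6 passed under at least 1 alternative, and the cause was not tested in any case. RLE factors in place of TMM moved no count of calls by over 1.5 times. The number of genes called for ATRA against untreated was 4652, and 2656 with libraries thinned to the smallest. For DOX against untreated it was 2446, against 1573 with the compared groups alone, 1197 after thinning, 28 with the mitochondrial ribosomal RNA term and 169 without untreated replicate 3 and DOX replicate 3 together; inhibitors called were 4, against 2 after thinning, 0 with the ribosomal RNA term and 1 without both libraries. After thinning, 415 genes in place of 713 were called for combined against ATRA, and 1891 in place of 3054 for combined against DOX. The interaction called 43 genes, against 111 with DESeq2, 24 with library size alone, 189 with no filter, 15 after thinning, 26 with the ribosomal RNA term and 9 without both libraries; inhibitors called were 1, against 2 with DESeq2, 2 with no filter and 0 without both libraries.

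Leaving out 1 library at a time gave up to 5344 genes and 5 to 7 inhibitors for ATRA, with 3844 genes without untreated replicate 2. Without untreated replicate 3 and DOX replicate 3 together, 3455 genes were called for ATRA. For DOX, leaving out 1 library gave 659 (without DOX replicate 2) to 4326 (without DOX replicate 1) genes and 2 to 5 inhibitors. For combined against ATRA it gave 264 (without ATRA replicate 3) to 1028 genes and 2 to 3 inhibitors. For combined against DOX it gave 2195 to 3898 genes and 4 to 5 inhibitors. For the interaction it gave 10 to 747 (without DOX replicate 1) genes and 0 (without untreated replicate 1) to 3 inhibitors. Signs turned only in uncalled results. SERPINB8 with DOX became -0.087 with the ribosomal RNA term. For combined against ATRA, CST7 became -0.15 without combined replicate 1 (range over libraries left out -0.15 to 0.58), and CSTB became 0.057 without ATRA replicate 1, 0.009 without combined replicate 1 and 0.051 without combined replicate 2 (range -0.093 to 0.057). CST3 in combined against DOX became -0.017 without DOX replicate 1 (range -0.017 to 0.093), and CST7 in the interaction became 0.11 without combined replicate 2 and 0.049 without combined replicate 3 (range -0.61 to 0.11). With the replicate number as a block, the calls numbered 4677 genes for ATRA, 2349 for DOX, 729 for combined against ATRA, 3052 for combined against DOX and 54 for the interaction, and no inhibitor changed its call. No pairing by number was evident. Deviations of 4 of 18 same-numbered pairs had a correlation over 0.1 (range -0.244 to 0.267), and 4 of 12 libraries were closest to their own number. With 3 libraries to a group of unequal depth, this check cannot exclude a shared culture or batch. Depth limits SERPINB6 without ATRA, and SERPINA1, SERPINB2 and SERPINB9 throughout.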
